A study of Homo sapiens with 6 samples.

Results

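The kallikrein genes KLK5 to KLK14 were followed in RNA-seq libraries of an oral squamous cell carcinoma line kept under hypoxia or normoxia. The members were taken by gene name, 10 in all, and 9 of them have a row among the 21776 genes of the deposited count table. KLK13 has no row, so its expression was not analysed here. The libraries are labelled as wild-type SCC25, an established human line derived from a tumor of the tongue, while a figure legend of the study names SCC9, another oral line. The hypoxic cells spent 12 h at 1% O2 (5% CO2, the rest nitrogen), and the normoxic cells 12 h in humidified air with 5% CO2. Each condition has 3 libraries, and all came from the same line in the same serum-supplemented medium. The labels do not say whether the libraries came from separate cultures, so the p-values measure the spread between these libraries, which may be technical. The total counts were 30186813, 36076088 and 32272716 for the hypoxia libraries, against 37278703, 29637189 and 29981208 for normoxia.

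Tissue kallikreins are secreted serine proteases made as inactive precursors and switched on when a short leading peptide is removed. In the upper layers of skin and oral epithelium they act in a cascade, in which the trypsin-like KLK5 cleaves and activates itself, the chymotrypsin-like KLK7 and other members. The active enzymes cut the desmosomal proteins that hold surface cells together, so that these cells are shed, and the inhibitor encoded by SPINK5 restrains them. All tissue kallikrein genes lie side by side in one cluster on the long arm of chromosome 19. Several members, KLK6 and KLK10 among them, are also known from carcinomas, where their levels differ from those of normal epithelium.

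The label of the cells was compared with their markers. Of 8 genes that mark squamous epithelium, 7 were expressed above the limit of counting, among them KRT5, TP63, SFN and EPCAM. KRT14, a basal keratin gene, had 0 reads in 5 libraries and 1 read in normoxia replicate 2. The markers of the upper epidermis were uneven. KRT1, LORICRIN and TGM3 have no row, and FLG, CDSN and DSC1 were at or near 0. KRT10, a keratin gene of the suprabasal layers, was at 6.04 FPKM under hypoxia and 8.70 under normoxia, TGM1 had 25 to 49 counts, and CASP14, another gene of the late program, is described with the proteases. As a check of the conditions, CA9, the hypoxia-induced carbonic anhydrase gene, had 7993, 10312 and 9495 counts under hypoxia and 1198, 781 and 2002 under normoxia. CA9 was higher in every library labelled as hypoxia. Normoxia replicate 3 stood apart from the other normoxia libraries. It was the highest of them for CA9, for NDRG1 (12097 counts against 6078 and 4017) and for EGLN3 (317 against 218 and 107), which are hypoxia-induced genes, though not for ADM (498 against 667 and 513). The chi-square per gene was 10.5 and 11.5 between it and the other normoxia libraries, and 7.16 between those. Without it, the log2-fold changes described next were 1.51 for KLK10 and 1.93 for KLK6, compared with 1.61 and 2.27 for all libraries.

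Of the members, KLK10 and KLK6 were the ones expressed above the limit of counting in both conditions, and KLK8 and KLK9 appeared under hypoxia at the edge of detection. Because these genes carry the results, the sequence around their start sites is shown. The windows are RefSeq promoters of GRCh38.p14, each from 250 bases before to 50 bases after a start, read 5′ to 3′ on the minus strand of the gene. Capitals mark ACGTG or GCGTG, the core letters of a hypoxia response element, searched on both strands, so that CACGT and CACGC are the same letters read from the other strand. A match is a description of the letters and not a binding site. The first window of KLK10 is chr19:51019812-51020111, that of KLK6 is chr19:50969542-50969841 and that of KLK9 is chr19:51009543-51009842.
KLK10: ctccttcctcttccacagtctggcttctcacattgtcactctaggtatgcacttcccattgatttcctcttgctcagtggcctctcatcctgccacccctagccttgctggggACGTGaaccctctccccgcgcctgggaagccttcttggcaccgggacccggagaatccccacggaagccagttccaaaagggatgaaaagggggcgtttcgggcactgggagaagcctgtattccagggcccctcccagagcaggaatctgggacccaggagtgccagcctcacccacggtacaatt
KLK6: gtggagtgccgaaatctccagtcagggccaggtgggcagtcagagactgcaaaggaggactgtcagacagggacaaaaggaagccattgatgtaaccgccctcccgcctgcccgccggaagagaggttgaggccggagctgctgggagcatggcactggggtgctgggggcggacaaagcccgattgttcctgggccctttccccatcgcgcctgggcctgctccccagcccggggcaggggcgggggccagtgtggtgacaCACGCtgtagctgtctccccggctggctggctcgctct
KLK9: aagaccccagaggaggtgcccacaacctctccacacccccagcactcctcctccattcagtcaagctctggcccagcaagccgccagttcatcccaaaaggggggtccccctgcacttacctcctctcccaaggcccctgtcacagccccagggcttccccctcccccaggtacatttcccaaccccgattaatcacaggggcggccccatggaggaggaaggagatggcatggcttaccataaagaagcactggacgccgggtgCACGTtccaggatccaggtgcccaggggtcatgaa
ACGTG lay 137 bases upstream of this KLK10 start. A second KLK10 window, chr19:51019660-51019959, held the same letters on the other strand 41 bases downstream of its start. In KLK6 the letters GCGTG were found on the other strand, 12 bases downstream of the start, and in KLK9 the letters ACGTG on the other strand, 15 bases downstream. KLK8 has no window in the table. Over the members, 8 of 16 windows held ACGTG or GCGTG, against 48.4% of all 35116 windows of this length, and some windows of 1 gene overlap. The 16 windows include 2 of KLK13, both with GCGTG. Taken singly, ACGTG was found in 21.4% and GCGTG in 36.5% of all windows. The TATA box letters TATAAA, also searched on both strands, were found in 0 of the 16 windows and in 11.5% of all.

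KLK10 was the most abundant member in both conditions. Also known as NES1, it encodes a secreted member of the family that was first described in normal breast epithelial cells. Its counts were 359, 467 and 442 under hypoxia, compared with 183, 109 and 108 under normoxia (replicates 1 to 3 in order, here and in what follows). Every hypoxia library lay above every normoxia library, and the libraries of one condition were close to each other. Scaled to CPM (counts per 1000000 of the TMM-adjusted library total), the level was 12.65 ± 0.94 (SD, n = 3) in hypoxic cells and 4.13 ± 0.69 (SD, n = 3) under normoxia. The log2-fold change was 1.61 (standard error, SE, 0.14, edgeR adjusted p = 1.01e-08 over 14255 genes), a 3.04-fold increase. KLK10 rose by this measure with a change that 12.0% of all genes tested matched or exceeded.

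KLK6 encodes a trypsin-like protease that is abundant in the brain and also made by epithelia. Its counts were 64, 107 and 121 under hypoxia, compared with 23, 26 and 8 under normoxia. The conditions did not overlap, but the spread was wider than for KLK10, with normoxia replicate 3 far below the other two. The level was 2.90 ± 0.82 CPM (SD, n = 3) in hypoxic cells and 0.60 ± 0.32 CPM (SD, n = 3) under normoxia. The log2-fold change was 2.27 (SE 0.36, edgeR adjusted p = 1.67e-05), a 4.83-fold increase. A change at least as large was found in 6.72% of all genes tested.

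**Figure D1:**
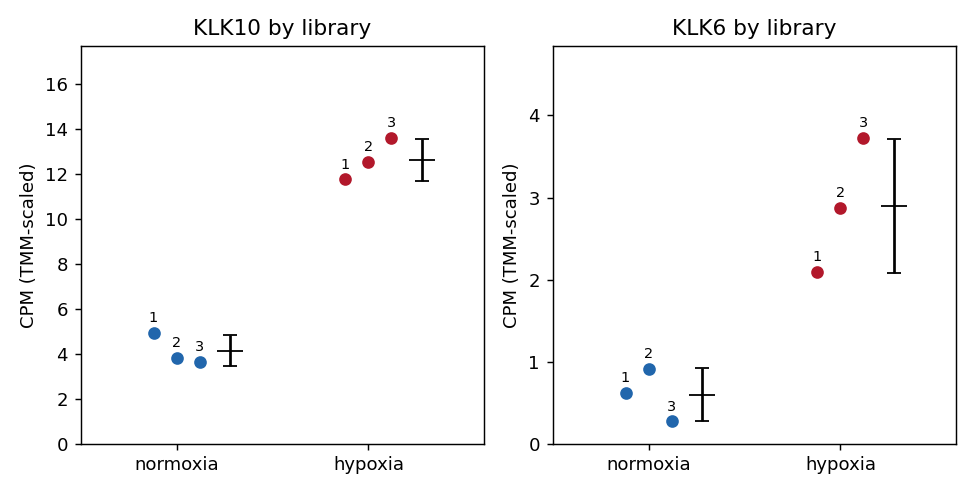
CPM (vertical axis, TMM-scaled, starting at 0) of KLK10 and KLK6 in each library, with the replicate number beside each point and bars for the mean ± SD of 3 libraries. KLK10 lay at 11.76 to 13.62 CPM under hypoxia and at 3.65 to 4.92 under normoxia, and KLK6 at 2.10 to 3.73 and at 0.27 to 0.91.

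Both members abundant enough for edgeR's filter were thus higher under hypoxia, against 39.2% of all 14255 genes that were higher at an adjusted p under 0.05 (77.8% changed in either direction). Both also rose by more than 1 on the log2 scale, as did 19.9% of all genes. KLK6 passed the filter through its hypoxia libraries, so that its place among the genes tested is not support of its own. In all genes tested, 40.6% had all hypoxia libraries above all normoxia libraries, and 39.9% had all below. For single genes the smallest p that an exact permutation of 3 libraries against 3 allows is 0.1, and KLK10 and KLK6 were both at this limit. On the deposited FPKM scale (fragments per kilobase of gene and per 1000000 of the library total) the change of log2(FPKM + 1) was 1.12 for KLK10 (SE 0.078, adjusted p = 1.76e-06 by limma) and 1.05 for KLK6 (SE 0.14, adjusted p = 0.000106 by limma). This scale understates the change of low genes, and with a pseudocount of 0.1 the change was 1.59 for KLK10 and 2.11 for KLK6. Here 36.7% of 10976 genes were higher. KLK6 reached the mean of 1 FPKM needed here through its hypoxia libraries (1.83 FPKM, against 0.36 under normoxia). Its test on this scale is thus not support of its own either.

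Strand was not stated for the counting. In GENCODE v29, KLK10 shares 240 of its 3853 exonic bases with the antisense gene AC011473.2, and KLK6 shares 401 of 1976 with the antisense gene AC011483.2. Neither partner has a row of its own under these names, so reads from them cannot be told apart from reads of KLK10 and KLK6. The long noncoding gene LOC105372442, which lies beside KLK6 in the RefSeq order, had 1 read in all 6 libraries together.

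The change of KLK6 was larger in size than that of KLK10, but the difference between the genes was within the spread. The log2 ratio of KLK10 to KLK6 counts within a library (2 counts added to each) was 2.45, 2.11 and 1.85 in hypoxia replicates 1 to 3. In normoxia replicates 1 to 3 it was 2.89, 1.99 and 3.46. These ranges overlap, since normoxia replicate 2 lay among the hypoxia libraries. The mean ratio was 2.14 ± 0.30 (SD, n = 3) in hypoxic cells and 2.78 ± 0.74 (SD, n = 3) under normoxia (two-sided exact permutation test, p = 0.3). Without normoxia replicate 2 the difference was -1.04 and without normoxia replicate 3 it was -0.30, compared with -0.64 for all libraries.

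KLK8 encodes a trypsin-like protease, also called neuropsin, that acts in skin and in the hippocampus. It had 9, 11 and 3 counts under hypoxia and 0 in all 3 normoxia libraries. Hypoxia replicate 3 held fewer reads than the other two, at the limit of 3 counts used here. From 23 counts against a limit of 3 over the whole normoxia group, the bound for KLK8 was 7.3-fold higher under hypoxia. This bound leaves out the counting error of the 23 reads, so the true change may be smaller. KLK9, the neighbour of KLK8 and a member with predicted chymotrypsin-like specificity, had 6, 8 and 7 counts under hypoxia and 0, 0 and 1 under normoxia. The ratio of its summed counts, 21 against 1, was 20 after scaling, with an exact 95% interval of 3.22 to 827 that covers counting error only.

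KLK8 and KLK9 were too rare for the filter. In edgeR's quasi-likelihood fit without it, KLK8 (adjusted p = 0.000975) and KLK9 (adjusted p = 0.0100) were higher, as were 28.2% of all 21776 genes. For some genes that fit was far less cautious. The adjusted p of KLK10 was 4.67e-28 there against 1.01e-08 with the filter, and the SE of CASP14 was 0.074 against 0.42. Others went the other way, such as ST14 (adjusted p = 0.0888 against 0.0105). Small p-values from the fit without the filter may thus be too small. The DESeq2 Wald test without a filter called the same number of members, 4, with 31.2% of 18397 genes higher. KLK9 lost this call without normoxia replicate 1 (log2-fold change 3.30, adjusted p = 0.0522 by edgeR), compared with 3.85 for all libraries. Without normoxia replicate 3, the one with a read, its log2-fold change was 5.80. In GENCODE v29, KLK8 shares 747 exonic bases and KLK9 shares 787 of its 840 with the same gene, AC011473.4, a protein-coding gene on the same strand that spans both. Reads of AC011473.4, which has no row under this name, cannot be told apart from reads of KLK8 and KLK9, so the pair do not count as independent.

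**Figure D2:**
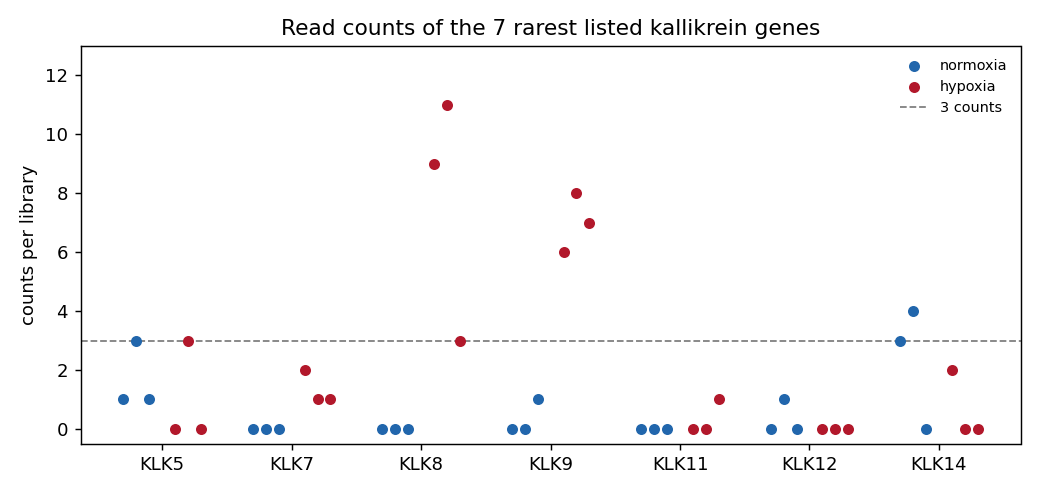
Counts per library (vertical axis) of the 7 listed members other than KLK10 and KLK6, with normoxia and hypoxia libraries as separate points and a dashed line at 3 counts. The hypoxia libraries of KLK8 and KLK9, at 3 to 11 and 6 to 8 counts, lie above their normoxia libraries, and KLK5, KLK7, KLK11 and KLK12 never passed 3 counts.

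The proteases known from the shedding of skin cells were not measurable. KLK5, which starts the cascade, had 0, 3 and 0 counts under hypoxia and 1, 3 and 1 under normoxia. KLK7, which cuts corneodesmosin, had 2, 1 and 1 counts under hypoxia and 0 in every normoxia library. KLK14, a trypsin-like activator of other members, had 2, 0 and 0 counts under hypoxia and 3, 4 and 0 under normoxia. These groups overlap for KLK5 and KLK14, and for KLK7 the 4 reads in all give a bound of only 1.27-fold. In the edgeR fit without the filter, KLK5 (adjusted p = 0.629), KLK7 (adjusted p = 0.156) and KLK14 (adjusted p = 0.331) did not pass the threshold. KLK11 and KLK12, which encode further trypsin-like members, had 1 read each in the 6 libraries, for KLK11 in hypoxia replicate 3 and for KLK12 in normoxia replicate 2. At this depth 3 counts correspond to 0.0806 to 0.105 CPM per library, and differences below that were not detectable.

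Compared per length, the members fell into the same order at the top in both conditions. Under hypoxia KLK10 was at 3.74 ± 0.26 FPKM (SD, n = 3) and KLK6 at 1.83 ± 0.51 FPKM (SD, n = 3), with no overlap between the genes. KLK8 followed at 0.22 ± 0.11 FPKM (SD, n = 3) and KLK9 at 0.15 ± 0.0087 FPKM (SD, n = 3), and the libraries of both overlapped. The FPKM imply lengths of 1050 bases for KLK8 and 1401 for KLK9, whereas GENCODE v29 gives 1865 and 840 exonic bases. The order of KLK8 and KLK9 thus depends on the length used. KLK7, KLK5, KLK14 and KLK11 were at 0.019 FPKM or lower, and KLK12 was listed at 0. Under normoxia KLK10 was at 1.18 ± 0.21 FPKM (SD, n = 3) and KLK6 at 0.36 ± 0.19 FPKM (SD, n = 3), again without overlap. All others were at 0.046 FPKM or lower, at so few reads that no order among them can be given. Even KLK10 was a gene of modest level, at position 7914 of the 21776 genes by mean FPKM under hypoxia and at position 10222 under normoxia.

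Summed over the 9 members, the level was 14.48, 16.05 and 17.72 CPM under hypoxia, compared with 5.64, 5.00 and 3.99 CPM under normoxia. The conditions did not overlap. The log2 difference was 1.73 (p = 0.1 by an exact two-sided permutation test, the limit named above). Nearly all of this sum was KLK10 and KLK6, which took 2017 of the 2085 reads counted on the members. By summed FPKM, KLK10 alone made up 62.5% of the members' level on average under hypoxia and 73.1% under normoxia, and KLK6 made up 30.1% and 21.3%. The share of KLK10 ranged from 60.5% to 65.6% among the hypoxia libraries and from 60.0% to 83.2% among the normoxia libraries, so the ranges overlap. In bulk RNA, more cells that make a transcript and more transcript per cell cannot be told apart.

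The neighbours in the cluster were next described, in the gene order of RefSeq GRCh38.p14. From KLK1 at one end to KLK14 at the other, the cluster holds 16 kallikrein genes and pseudogenes, of which 12 have a row and 3 were tested. KLK2, a relative of the prostate-specific antigen gene that lies outside KLK5 to KLK14, had 42, 43 and 28 counts under hypoxia and 5, 5 and 13 under normoxia. It was higher under hypoxia, with a log2-fold change of 2.20 (SE 0.46, edgeR adjusted p = 0.000347), and of 2.84 without normoxia replicate 3. Like KLK6, it passed the filter through its hypoxia libraries. KLK3, KLK4 and the pseudogene KLKP1 have no row, KLK15 had 1 read, and KLK1 had 5, 1 and 3 counts under hypoxia and 0, 5 and 1 under normoxia. The genes with reads enough to test thus lay apart from each other, with neighbours at no more than 11 counts in any library between KLK6 and KLK10.

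Outside the cluster, the flanking genes took different directions. CTU1, a tRNA-modifying enzyme gene next to KLK14, fell, with a log2-fold change of -1.18 (SE 0.16, edgeR adjusted p = 2.42e-06). VSIG10L rose by 1.20 on the log2 scale (SE 0.36, adjusted p = 0.00632) and CLEC11A, which encodes a secreted growth factor, by 0.67 (SE 0.28, adjusted p = 0.0371, both by the same test). ETFB, the most abundant gene of this stretch and a subunit of an electron carrier of mitochondria, had a log2-fold change of 0.093 (adjusted p = 0.241).

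**Figure D3:**
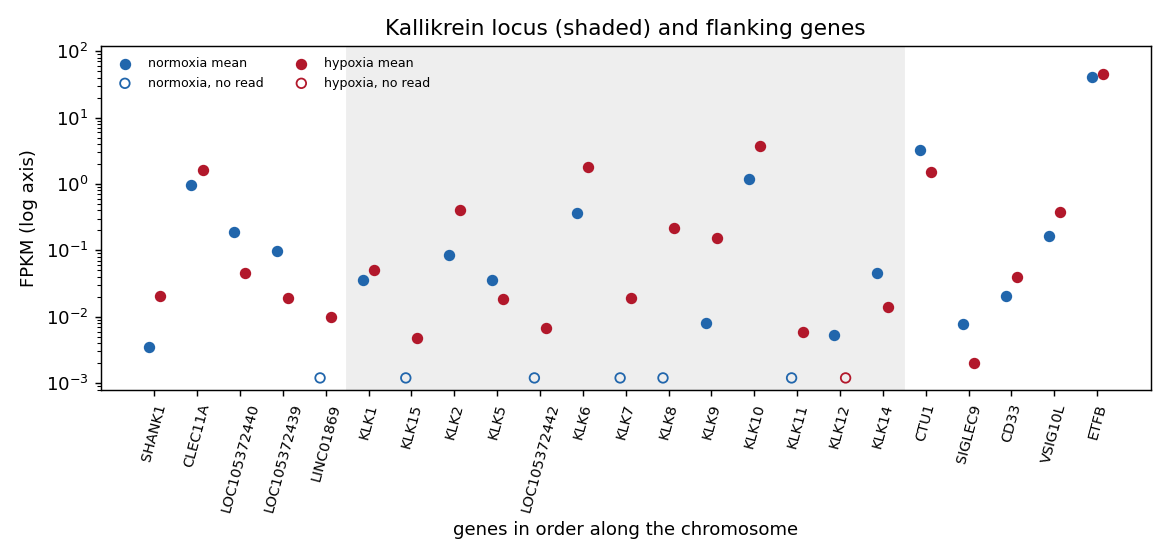
Mean FPKM (log axis) of the genes with a row in order along the chromosome, 5 flanking genes on each side of the shaded kallikrein cluster, with filled points for the mean of 3 libraries and open points for conditions without a read. KLK10 and KLK6 stand out among the members under both conditions, and KLK7, KLK8 and KLK11 are the members without a read under normoxia.

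Inhibitors of secreted and membrane-bound proteases, those of kallikreins among them, were taken as a list of 15 genes, 8 of which were tested. Under hypoxia 6 rose and 2 fell past edgeR's threshold, compared with 39.2% higher and 38.5% lower of all genes. Their median log2-fold change was 0.59, and that of all genes tested was 0.023. SPINK5, whose product LEKTI is the main inhibitor of KLK5 and KLK7, rose 5.80-fold from a low level, with 36, 71 and 67 counts under hypoxia and 10, 6 and 12 under normoxia. SPINK5 passed the filter through its hypoxia libraries, so its place among the 6 is not support of its own. SERPINA5, the protein C inhibitor gene, rose 8.34-fold, from 2.42 ± 0.37 to 20.21 ± 1.38 CPM (SD, n = 3), a log2-fold change of 3.06 (SE 0.13, edgeR adjusted p = 1.44e-12). The abundant SPINT1 and SPINT2, which encode inhibitors of matriptase and prostasin, had log2-fold changes of 0.62 and 0.50. PI3, which encodes the elastase inhibitor elafin, fell by 3.04 on the log2 scale, with 264, 274 and 267 counts under hypoxia against 2809, 2126 and 1461. SLPI, the secretory leukocyte protease inhibitor gene, was the other gene that was lower (log2-fold change -0.23, adjusted p = 0.0102), and it lost this call without hypoxia replicate 2 (-0.16, adjusted p = 0.0627) or when 10 counts were required of every library (-0.15, adjusted p = 0.0690).

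Other epidermal proteases were taken as a list of 11 genes, of which 8 were tested. Of these, 7 were higher and 1 was lower by the same test, compared with 39.2% higher and 38.5% lower of all genes. The median log2-fold change of the tested proteases was 1.44. PRSS8, which encodes prostasin, a membrane-anchored trypsin-like protease, rose from 32.64 ± 5.36 to 111 ± 2.94 CPM (SD, n = 3), a log2-fold change of 1.77 (SE 0.085, edgeR adjusted p = 5.17e-12). TMPRSS13, a transmembrane serine protease gene, and CTSD, the cathepsin D gene, rose 3.16-fold and 3.00-fold. CASP14, the caspase gene of the cornifying layer, had 9274, 14557 and 12474 counts under hypoxia and 142, 65 and 655 under normoxia. Its log2-fold change was 5.29 (SE 0.42, adjusted p = 3.42e-09), with normoxia replicate 3 well above the other normoxia libraries. Without that library it was 6.83. CTSC, which activates serine proteases of granules, fell 2.65-fold. ST14, the matriptase gene, and CTSV, a cathepsin gene, changed little, with log2-fold changes of 0.15 (adjusted p = 0.0105) and 0.22 (adjusted p = 0.0495) by edgeR. ST14 lost the call without normoxia replicate 1 (adjusted p = 0.0828) or without the filter (adjusted p = 0.0888). CTSV lost it without any 1 of the libraries other than normoxia replicate 3 (edgeR adjusted p from 0.0506 to 0.230), without the filter (adjusted p = 0.158) and in the DESeq2 Wald test (adjusted p = 0.0661).

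Substrates and receptors of kallikreins moved in both directions. Of 15 listed genes 9 were tested, 4 were higher, 3 were lower and 2 did not pass, with a median log2-fold change of -0.11. The share called was near that of all genes, 77.8% (39.2% higher and 38.5% lower). One of the 4, the thrombin receptor gene F2R (log2-fold change 0.27), lost its call without hypoxia replicate 2 (edgeR adjusted p = 0.0605) or normoxia replicate 1 (edgeR adjusted p = 0.102). The desmosomal DSG3 rose by 1.35 on the log2 scale (adjusted p = 7.88e-08), whereas its relatives of the upper epidermis were scarce, with at most 15 counts of DSG1 in any library. F2RL1, which encodes the protease-activated receptor cleaved by KLK5, KLK6 and KLK14, had 529, 486 and 464 counts under hypoxia and 881, 751 and 856 under normoxia. It fell by 0.82 on the log2 scale (SE 0.11, edgeR adjusted p = 1.91e-06), with no overlap between the conditions. IL1B, an inflammatory cytokine gene, fell 2.26-fold.

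Steroid and nuclear receptors known to act on kallikrein genes were the last list. Of 10 genes 8 were tested, and 5 were higher, 1 lower and 2 not past the threshold, a share called near the 77.8% of all genes (39.2% higher and 38.5% lower). Their median log2-fold change was 0.54. ESR1 (adjusted p = 0.217) and ESR2 (adjusted p = 0.131), the estrogen receptor genes, were near the filter and did not pass edgeR's test. RARA, a retinoic acid receptor gene, rose from 27.29 ± 0.88 to 106 ± 7.82 CPM (SD, n = 3), a log2-fold change of 1.96 (SE 0.066, adjusted p = 8.1e-14). The glucocorticoid receptor gene NR3C1 rose 1.45-fold, and the vitamin D receptor gene VDR was 1.62-fold lower.

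**Figure D4:**
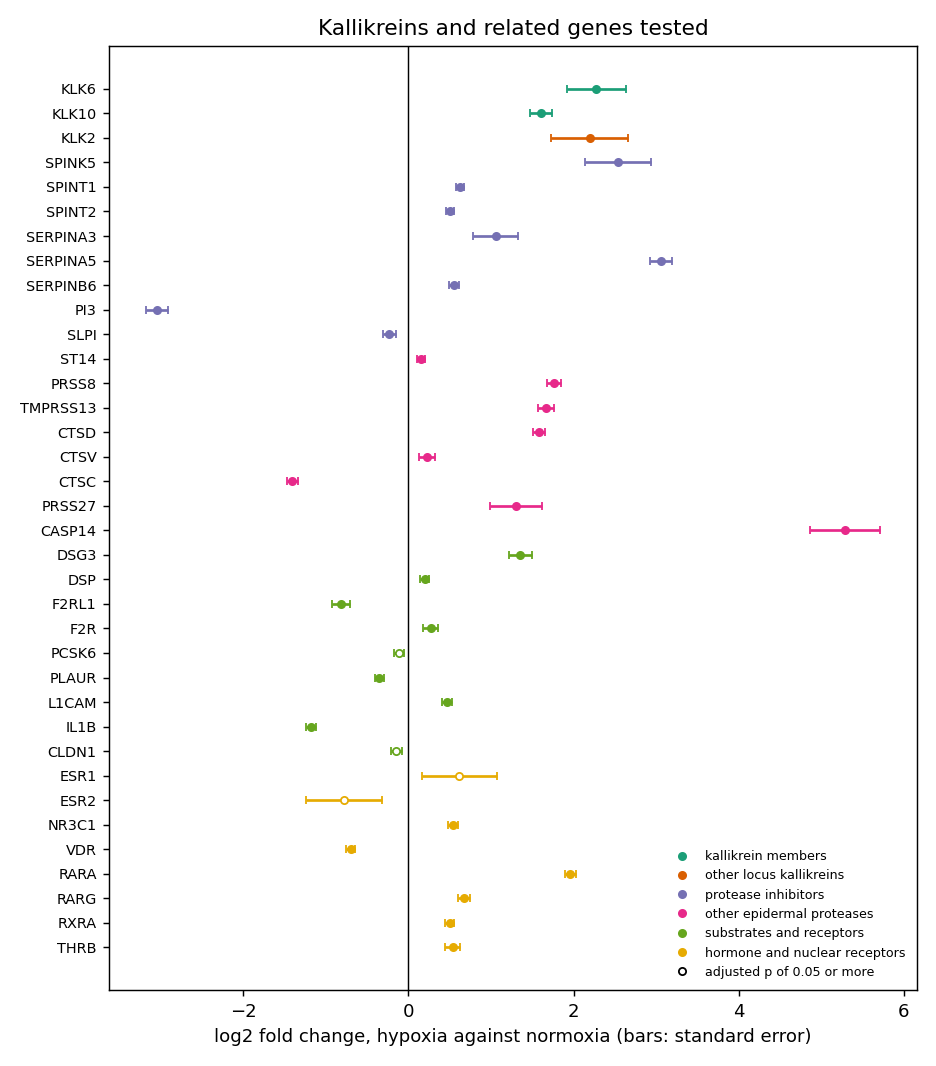
Log2-fold change of hypoxia against normoxia (horizontal axis, bars for the standard error) of the tested members and the related lists, coloured by list, with open points for an adjusted p of 0.05 or more. KLK6 and KLK10 lie at 2.27 and 1.61, SPINK5 and SERPINA5 at 2.54 and 3.06, and PI3 at -3.04.

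Markers of differentiation and of other cell types were given beside the kallikreins. In the squamous epithelial list, 7 genes were tested, 3 were higher, 3 lower and 1 did not pass by edgeR. Of all genes, 39.2% were higher and 38.5% lower. The lower KRT5 lost its call without hypoxia replicate 2 (edgeR adjusted p = 0.0624) or with 10 counts required per library (0.127). This list summed to 1071, 1039 and 1057 CPM under hypoxia and 892, 903 and 954 CPM under normoxia. Of the 5 tested markers of the upper epidermis, 0 were higher by edgeR's quasi-likelihood test (the log2-fold changes of all 5 were below 0) and 3 were lower, compared with 39.2% higher and 38.5% lower of all genes. CASP14, which belongs to the same late program and rose, was listed with the proteases and is not part of this count or of the summed level of these markers. SPRR2A had 5, 2 and 5 counts under hypoxia against 195, 170 and 51, and SPRR1B fell by 3.59 on the log2 scale. SPRR1B, SPRR2A and IVL passed the filter through their normoxia libraries, so their place among the 5 markers is not support of its own. The list summed to 15.36, 14.33 and 14.70 CPM under hypoxia and 29.99, 29.71 and 23.46 CPM under normoxia, and KRT10 was its most abundant gene. Of 6 fibroblast markers, COL1A1 was the most abundant and rose by 2.26 on the log2 scale, and DCN and COL3A1 were at or near 0. The fibroblast list summed to 21.25, 18.44 and 17.04 CPM under hypoxia and 4.004, 3.145 and 5.577 CPM under normoxia, and COL1A1 made up most of it, at 17.97 ± 2.02 and 3.76 ± 1.17 CPM (SD, n = 3). PDGFRB, the other fibroblast marker tested, did not pass (log2-fold change 0.96, edgeR adjusted p = 0.0507). Of 4 endothelial markers, CDH5 was the most abundant, passed the filter through its hypoxia libraries and was higher by 1.14 (adjusted p = 0.0250), with the call lost without hypoxia replicate 1 (1.06, adjusted p = 0.0790), hypoxia replicate 3 (1.06, adjusted p = 0.0781), normoxia replicate 1 (0.82, adjusted p = 0.137) or normoxia replicate 2 (0.97, adjusted p = 0.0919) and the change at 1.75 without normoxia replicate 3 (all by edgeR). PECAM1 had 5, 9 and 10 counts under hypoxia and 2, 0 and 0 under normoxia, and VWF had 10, 9 and 4 against 0 in every normoxia library. The endothelial list summed to 1.67, 1.26 and 1.51 CPM under hypoxia and 0.30, 0.31 and 0.74 CPM under normoxia. KDR, the remaining endothelial marker, had 4, 1 and 1 counts under hypoxia and 0 in every normoxia library (edgeR adjusted p = 0.0804 without the filter). For each of the 4, all hypoxia libraries lay above all normoxia libraries, as for KLK8 and KLK9 and for 40.6% of all genes tested. Only CDH5 was abundant enough for the filter. CD68 was the most abundant of 4 leukocyte markers, at 18.5 FPKM under hypoxia and 19.1 under normoxia, while PTPRC and CD3E were at or near 0. ITGAM, the remaining leukocyte marker, had 6, 15 and 10 counts under hypoxia and 2, 3 and 2 under normoxia, without overlap. Its edgeR adjusted p was 0.0490 without the filter, a fit whose p-values may be too small. The leukocyte list summed to 27.48, 32.29 and 34.21 CPM under hypoxia and 32.78, 32.29 and 34.31 CPM under normoxia, with overlap, and CD68 made up most of it. The part of these genes in the rise of KLK10, KLK6, KLK8 and KLK9 was not tested.

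The pattern of KLK10 over the 6 libraries was shared by many genes. Among 11772 genes with a mean log2 CPM of at least 1, the log2 CPM of 130 genes had a Pearson correlation above 0.99 with it. The 5 highest were LMLN, UGP2, NRBP2, ISG15 and RHOT1 (r from 0.997 to 0.999). These points share libraries and 2 conditions, and the changes of the 5 genes were smaller, with log2-fold changes from 0.42 for RHOT1 to 1.18 for NRBP2.

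The values of KLK10 and KLK6 were compared across the settings. KLK10 stayed between 1.51 and 1.75 and KLK6 between 1.93 and 2.65 on the log2 scale, with adjusted p-values of at most 8.31e-07 and 0.000339. The lowest values of both were those without normoxia replicate 3. KLK6 could not be tested when every library had to reach 10 counts, because normoxia replicate 3 had 8.

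**Figure D5:**
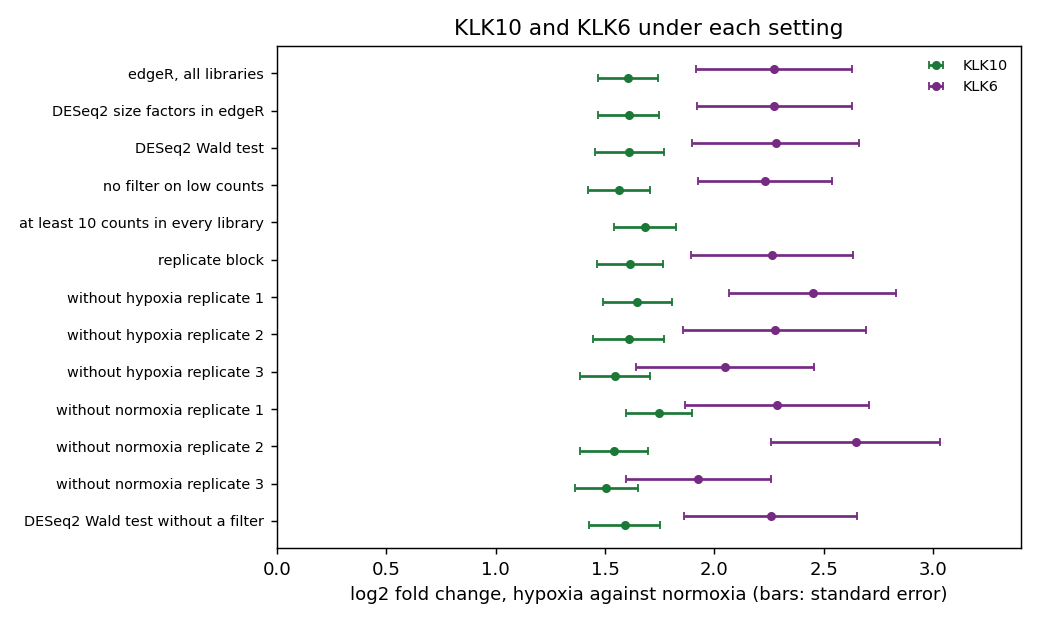
Log2-fold change (horizontal axis, bars for the standard error) of KLK10 and KLK6 under each normalization, test, filter and omitted library (rows). Every point lies above 1.5, and the intervals of KLK6 are wider than those of KLK10 throughout.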

How the data were processed

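Libraries were made from total RNA with an mRNA-Seq kit. The authors deposited counts, whole numbers of reads per gene without normalization, listing genes with at least 1 read, and FPKM for the same genes. The FPKM of the members follow from their counts, 1 gene length and the library total. The aligner, annotation, counting tool and strand setting are not given in the sources used here. The submitters' processing notes name GRCm38 and mm10, mouse builds, although the genes are human, so no coordinates were assigned to the counts.

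Differential expression was computed from the counts by edgeR 4.0.16 (R 4.3.3; quasi-likelihood F test, TMM, filterByExpr, Benjamini-Hochberg adjustment at 0.05), with condition as the only term. The standard error is the log2-fold change divided by the square root of F. Log2(FPKM + 1) was tested with limma 3.58.1 where the mean reached 1 FPKM. Both were also run on simulated data, whose outcome is not given here, so those runs carry no weight in the results. DESeq2 1.42.0, other filters, the replicate block and omitted libraries were alternatives. Libraries held 29637189 to 37278703 counts, and 3 counts were taken as the limit of detection. For a condition without reads, the bound sets 3 counts over its 3 libraries and leaves out the counting error of the other condition. Replicates differed by more than sampling noise, with a chi-square of 5.11 to 11.5 per gene. The members and lists were chosen with earlier results of these data known, and every member, every listed gene and 5 neighbours on each side could be named. RefSeq promoters and gene order came from GRCh38.p14, where 9 of 10 members have a promoter window. Proteins were not used here. One gene of the receptor list is not reported here.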

Additional observations from a re-analysis of the deposited data

How the results depend on the processing

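The number of genes that differed between the conditions, 11090, was 9967 to 11920 when the normalization, the test or the filter was changed and 10669 to 11390 with one library left out. It was 4338 when a change above 1 on the log2 scale was also required. The number of members that were higher, 2, depended on the filter: 4 were higher without a filter, both by edgeR and by the DESeq2 Wald test, the latter chosen after the data had been seen, and 1 when 10 counts or more were required of every library, where KLK6 could not be tested. The p-values of edgeR's fit without a filter may be too small, as described with KLK8 and KLK9. With one library left out it was 2 in each case. KLK2 could not be tested with at least 10 counts either, which left 0 other kallikreins of the cluster higher. Requiring that change reduced the inhibitors from 8 to 4, the substrates and receptors from 7 to 2 and the nuclear receptors from 6 to 1. With one library left out, these lists held 7 to 8, 6 to 9 and 6 genes, and the other proteases 6 to 8. KLK10 (1.51 to 1.75) and KLK6 (1.93 to 2.65) kept their direction and their call, and the log2 difference of the summed level was 1.59 to 1.84 with one library left out and 1.88 as a sum of FPKM.

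Same-numbered replicates did not deviate together (r = 0.0175, -0.069 and 0.00122), so no shared effect of the replicate number was seen. This cannot tell whether same-numbered libraries were handled together. With the replicate block, 10875 genes differed, KLK10 had a log2-fold change of 1.61 and KLK6 one of 2.26, and CTSV lost its call (adjusted p = 0.0725). Among 49 other genes of the lists, 0 of their fold changes reversed, and with one library left out 14 of 294 results were weaker and 5 stronger. The filters moved the fold changes of shared genes by -0.041 (none) and 0.077 (at least 10 counts), so changes of that size are not resolved. The planned ratio of KLK7 to KLK5 was not run, because both lay at 3 counts or fewer in every library. On the FPKM scale KLK6 had no value without hypoxia replicate 2 or 3, where its mean was under 1.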
